A study of Homo sapiens with 16 samples.

Results

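B cell identity is held by a small network of transcription factors. PAX5 and EBF1 commit a progenitor to the B lineage and keep mature B cell genes on, with IKZF1, the ETS factors SPI1 (PU.1) and SPIB, and POU2AF1 (OCA-B), a co-activator of the octamer factors. BCL6 and BACH2 hold an activated B cell back from becoming a plasma cell, whereas IRF4 and PRDM1 (BLIMP-1) drive that step, and PRDM1 and BCL6 repress each other. The data concern these 10 genes, chosen by symbol for their known roles in the lineage, out of 58051 gene identifiers in the deposited expression table. Each symbol matched 1 identifier. The choice was made with earlier results of these data known, so counts of these genes are descriptions.

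RNA was sequenced from P493-6, an established human B cell line immortalised with Epstein-Barr virus. It carries a MYC transgene that doxycycline shuts off, and its viral factor EBNA2 works only when oestrogen is present. Cells in ordinary medium formed the high MYC groups. Cells that had been given 0.1 µg/mL doxycycline and 1 µM β-estradiol 24 h earlier formed the medium MYC groups. Each culture type then received either 100 nM IMP1088 or its vehicle DMSO for 24 h. IMP1088 blocks NMT1 and NMT2, the enzymes that put myristate, a fatty acid, on the first glycine of a protein. This gave 4 groups of 4 libraries: high MYC with DMSO, high MYC with IMP1088, medium MYC with DMSO and medium MYC with IMP1088. MYC level, doxycycline and estradiol (and with it EBNA2 activity) changed together and cannot be told apart, and all groups came from 1 cell line. The labels do not say whether the replicates were separate cultures, so p-values measure the spread between these libraries, which may be technical.

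Values are the authors' normalized counts, which are read counts divided by a factor for each library's depth. The libraries held between 8755296 and 13858534 recovered reads. MYC, which checks the labels, had a normalized count of 29693 to 34375 at high MYC with DMSO and 904 to 1022 at medium MYC with DMSO. With IMP1088 it was 46843 to 48049 at high MYC and 1328 to 1444 at medium MYC, so that MYC mRNA itself rose with the inhibitor by 0.59 and 0.53 on the log2 scale (limma adjusted p = 7.24e-10 and 2.74e-09). Its part in the results on the 10 factors was not tested. The B cell label was checked with 10 markers, of which 9 had a mean of at least 10 in every group, CD74 most of all, while BANK1 was at 0 in every library of high MYC with DMSO. Summed over the list, B cell markers came to between 31506 and 64278 normalized counts per library. The summed level of 10 T cell markers was at most 327 and that of 10 myeloid markers at most 291, and 7 erythroid markers together reached at most 13.6. Of the T cell markers CD3E, CD3G, TRBC2 and LCK had a mean over 10 in each group, LCK with 71.8 to 138, and of the myeloid markers LYZ (47.8 to 67.7) and ITGAM (55.9 to 221) did. CD8A was at 0 in 3 of the 4 groups and ELANE in all 4.

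Promoter sequence is shown for IRF4, EBF1 and SPIB, because IRF4 and EBF1 are the only 2 of the 10 genes whose window held any of the 5 motifs searched, and SPIB, which held none, had the largest difference in response between MYC levels among the 9 factors in the fit across genes. RefSeq (GRCh38.p14) gave windows for 8 of the 10 genes (12 windows, each from 250 bases before to 50 bases after a transcript start). The motifs, searched on both strands, were CACGTG (the E-box of MYC and MAX), GTGGGAA (RBPJ, the DNA-binding partner of EBNA2), ATGCAAAT (the octamer), an EBF1 motif (TCCC and GGGA with any 2 bases between them) and a composite of ETS and IRF sites (GGAA and GAAA with any 2 bases between them). The RBPJ and composite motifs share the letters GGAA, but no 2 matches overlapped in the windows of these genes. The 250 bases before each start are printed 5′ to 3′ on the gene's strand, with the matched motif in capitals.

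IRF4, chr6:391502-391751, plus strand: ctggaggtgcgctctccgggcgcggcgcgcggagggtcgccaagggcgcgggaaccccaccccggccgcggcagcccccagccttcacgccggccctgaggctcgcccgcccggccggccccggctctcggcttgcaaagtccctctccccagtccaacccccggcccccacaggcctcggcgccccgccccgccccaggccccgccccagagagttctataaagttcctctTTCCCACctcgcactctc
EBF1, chr5:159097957-159098206, minus strand: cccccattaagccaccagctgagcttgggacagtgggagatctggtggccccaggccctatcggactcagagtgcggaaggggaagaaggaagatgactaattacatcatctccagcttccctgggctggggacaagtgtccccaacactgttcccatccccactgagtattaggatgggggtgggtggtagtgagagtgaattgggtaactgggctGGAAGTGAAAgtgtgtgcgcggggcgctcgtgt
SPIB, chr19:50418688-50418937, plus strand: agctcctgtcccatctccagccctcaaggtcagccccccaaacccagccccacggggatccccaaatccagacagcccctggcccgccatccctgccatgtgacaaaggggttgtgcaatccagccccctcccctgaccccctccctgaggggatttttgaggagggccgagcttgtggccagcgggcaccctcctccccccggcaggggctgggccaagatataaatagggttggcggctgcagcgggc

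In the IRF4 window the capitals mark the RBPJ letters read on the opposite strand (TTCCCAC), with the first base at -18 from the start. In the EBF1 window they mark the ETS-IRF composite, with the first base at -33. GENCODE release 29 places 13 bases of the IRF4 window in an exon and none of the EBF1 window, which lies inside the gene, or of the SPIB window, which lies before it. The RBPJ letters occur in 6.25% of all 35116 windows and the composite in 2.82%. The E-box (7.26% of all windows), the octamer (1.77%) and the EBF1 motif (1.21%) were not found in any of the 12 windows of these genes. Such matches describe letters only.

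The comparison of IMP1088 with DMSO addresses how the factors respond to NMT inhibition. With the inhibitor PRDM1, IRF4 and BACH2 rose at both MYC levels. PAX5, EBF1, POU2AF1, SPIB, SPI1 and IKZF1 fell at high MYC. At medium MYC SPI1 and IKZF1 fell. At high MYC 9 of the 9 factors in the fit across genes were called (3 higher and 6 lower, limma adjusted p under 0.05), beside 26.8% of all 13765 genes tested (10.5% higher and 16.3% lower). Of the calls over all genes 39.1% were higher, and 49.4% were with quantile normalization. At medium MYC 5 of 9 were called (3 higher and 2 lower), beside 26.3% of all genes (11.7% higher and 14.6% lower). Inhibitor and DMSO libraries did not overlap for 9 of the 10 factors at high MYC and for 6 of the 10 at medium MYC, as for 26.7% and 27.9% of the genes tested. The median log2 change of the 9 was -0.20 at high MYC and -0.04 at medium MYC, and over all genes tested it was -0.02 and -0.01. BCL6, with a mean of 5.34 over the 16 libraries, fell under the filter (a mean of at least 10) and was tested by permutation. Each of the other 9 had a mean of at least 194 in each group, so none entered the fit through 1 group alone. In RNA from whole cultures, a change in every cell and a change in the share of cells that express a gene cannot be told apart.

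**Figure D1:**
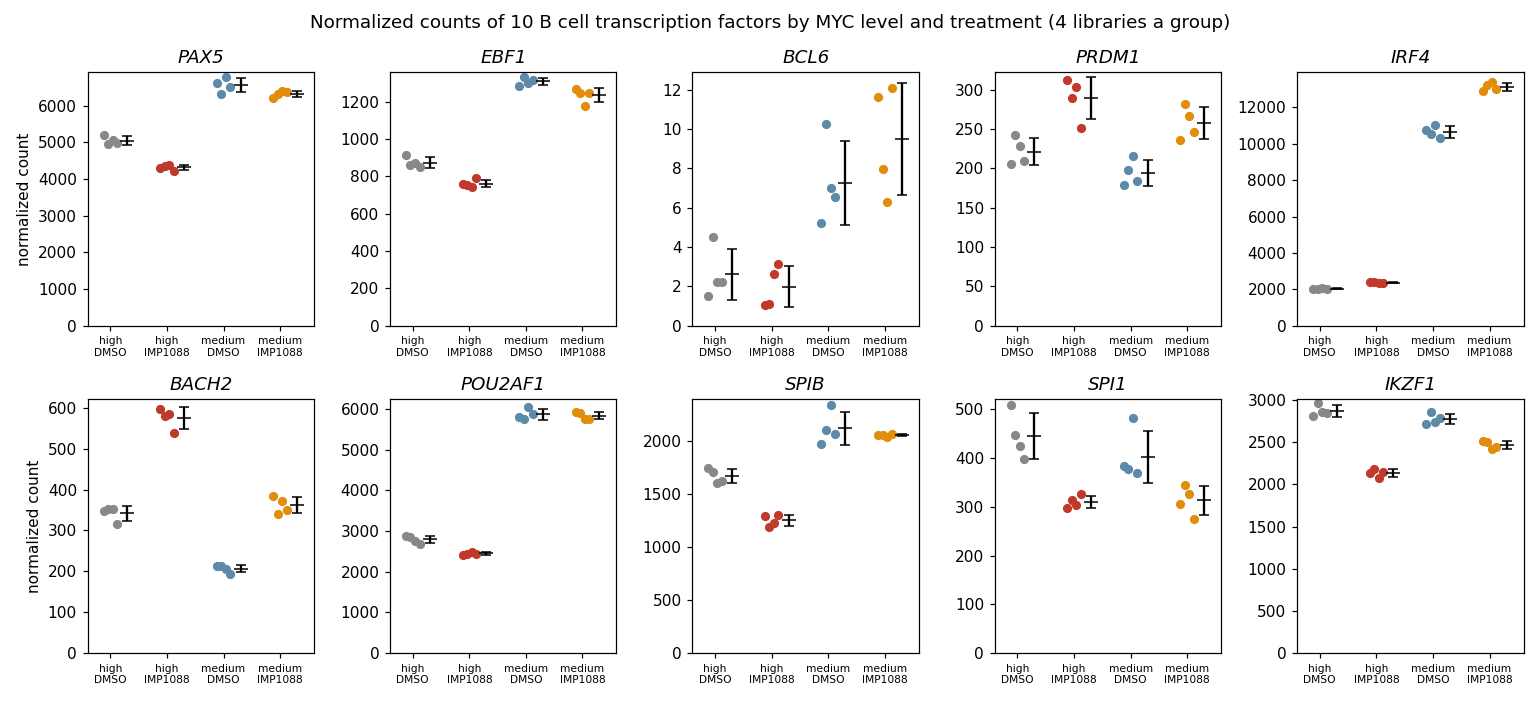
Normalized counts (vertical axes, starting at 0) of the 10 factors in each of the 16 libraries, by MYC level and treatment; points are libraries, and the horizontal and vertical lines give the mean and SD of 4 libraries. BACH2 and PRDM1 sit higher in both IMP1088 groups than in the DMSO group of the same MYC level, IRF4 and POU2AF1 sit higher at medium MYC, and BCL6 stays at or under 12.1 in every library.

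BACH2 (ENSG00000112182, chromosome 6, 89926529 to 90296908, GRCh38), the repressor that delays plasma cell differentiation, had the largest change with the inhibitor among the 10 factors. Its normalized count at high MYC was 347, 352, 353 and 315 with DMSO and 598, 580.1, 584 and 537 with IMP1088. At medium MYC it was 212, 212, 207 and 194 with DMSO and 384, 339.7, 372 and 351 with IMP1088. All 4 inhibitor libraries lay above all 4 DMSO libraries at each MYC level. The log2 change was 0.75 (SE 0.06) at high MYC and 0.81 (SE 0.06) at medium MYC, a 1.68-fold and a 1.75-fold rise (limma adjusted p = 2.58e-09 and 5.64e-10). The responses at the 2 MYC levels differed by -0.06 (95% interval -0.23 to 0.11, limma adjusted p = 0.745). BACH2 was lower at medium than at high MYC, by -0.73 in DMSO and -0.67 in IMP1088 (limma adjusted p = 1.43e-10 and 5.72e-10). The inhibitor libraries at medium MYC (mean 362 ± 20.2, SD, n = 4) thus held about the level of the DMSO libraries at high MYC (342 ± 17.9, SD, n = 4), and these 2 groups were not compared by a test.

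PRDM1 (ENSG00000057657, chromosome 6, 106086320 to 106109939), the repressor that shuts down the B cell programme in plasma cells, rose as well. With DMSO at high MYC its libraries stood at 206, 243, 228 and 209, and with IMP1088 at 312, 289, 304 and 252. At medium MYC they stood at 179, 198, 216 and 185 with DMSO and at 237, 282, 266 and 246 with IMP1088. The groups did not overlap at either MYC level, and the lowest inhibitor library at high MYC (252) was close to the highest DMSO library (243). PRDM1 rose by 0.38 (SE 0.08) on the log2 scale at high MYC and by 0.40 (SE 0.08) at medium MYC (limma adjusted p = 0.00134 and 7.33e-04). The responses differed by -0.02 (95% interval -0.26 to 0.22, limma adjusted p = 0.947). Between MYC levels the libraries overlapped in DMSO and in IMP1088. PRDM1 was lower at medium MYC in DMSO by -0.19 (limma adjusted p = 0.0450), a call that was lost in 12 of 30 alternative settings, where the change ran from -0.24 to -0.14 and the adjusted p from 0.0151 to 0.148. It was lost, for example, with DESeq2 (adjusted p = 0.0798). In IMP1088 the change was -0.16 (95% interval -0.33 to 0.01, limma adjusted p = 0.0750). Leaving out replicate 4 of high MYC with IMP1088 (-0.23, adjusted p = 0.0167) or replicate 2 of medium MYC with IMP1088 (-0.21, adjusted p = 0.0372) brought that change past the threshold. In DMSO the call was lost without replicate 2 or 3 of high MYC, without replicate 1, 2 or 4 of medium MYC, or without replicate 2 of high MYC or replicate 3 of medium MYC with IMP1088.

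IRF4 (ENSG00000137265, chromosome 6, 391739 to 411447), which promotes plasma cell differentiation and is induced on B cell activation, differed most between MYC levels. High MYC libraries held 2046, 2017, 2056 and 2026 normalized counts with DMSO and 2391, 2421, 2339.6 and 2350.3 with IMP1088. Medium MYC libraries held 10758, 10542, 11033 and 10295 with DMSO and 12920.4, 13219.9, 13381 and 13002 with IMP1088. The 4 groups were fully separated, with medium MYC far above high MYC and each inhibitor group above its own controls. IRF4 was 5.23-fold higher at medium than at high MYC in DMSO and 5.53-fold higher in IMP1088 (log2 changes 2.39 and 2.47, limma adjusted p = 4.17e-25 and 1.70e-25). The rise with the inhibitor was smaller, 0.22 (SE 0.03) at high MYC and 0.30 (SE 0.03) at medium MYC (limma adjusted p = 8.80e-07 and 8.93e-09). These responses differed by -0.08 (95% interval -0.15 to -0.0049, limma adjusted p = 0.198), which did not pass after adjustment over all genes.

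PAX5 (ENSG00000196092, chromosome 9, 36833275 to 37034185), the commitment factor of the lineage, fell with the inhibitor at high MYC. Its normalized count there was 5199, 4953, 5071 and 4969 with DMSO and 4308, 4345, 4393 and 4228 with IMP1088. At medium MYC the libraries held 6628, 6324, 6790.3 and 6510.0 with DMSO and 6199, 6302, 6384 and 6379 with IMP1088. The groups were separate at high MYC and overlapped at medium MYC. The log2 change was -0.23 (SE 0.03, limma adjusted p = 1.33e-06) at high MYC and -0.05 (95% interval -0.11 to -0.000125, limma adjusted p = 0.136) at medium MYC. A test of high minus medium MYC gave -0.17 (SE 0.04, limma adjusted p = 0.00486). Such a difference was called for 4 of the 9 factors, each of them negative, and for 8.63% of all genes tested (3.31% positive and 5.33% negative). PAX5 was 1.30-fold higher at medium than at high MYC in DMSO and 1.46-fold higher in IMP1088 (limma adjusted p = 1.87e-11 and 2.64e-14).

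EBF1 (ENSG00000164330, chromosome 5, 158695916 to 159099761), the pioneer factor that acts with PAX5, gave 913, 858, 873 and 848 with DMSO and 761, 754, 741 and 789 with IMP1088 at high MYC. Its medium MYC libraries gave 1285, 1329.6, 1301 and 1318 with DMSO and 1265, 1245, 1178 and 1248 with IMP1088. Inhibitor libraries lay below their controls at each MYC level, without overlap. EBF1 fell by 0.20 (SE 0.04) on the log2 scale at high MYC (limma adjusted p = 2.10e-04). At medium MYC the change was -0.08 (95% interval -0.16 to -0.01, limma adjusted p = 0.0816), and a GC correction, added after the data were seen, made it -0.12 (adjusted p = 0.0179). Over all alternatives it ran from -0.12 to -0.05 (adjusted p from 0.0179 to 0.327), the latter with quantile normalization. The difference between the responses was -0.11 (95% interval -0.22 to -0.01, limma adjusted p = 0.186). EBF1 was higher at medium than at high MYC, by 0.58 in DMSO and 0.70 in IMP1088 (limma adjusted p = 1.41e-12 and 5.93e-14).

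POU2AF1 (ENSG00000110777, chromosome 11, 111352252 to 111455630), the B cell partner of the octamer-binding factors, gave 2875, 2864, 2761 and 2693 with DMSO at high MYC and 2424, 2446, 2496 and 2444 with IMP1088. At medium MYC it gave 5815, 5749, 6064 and 5886 with DMSO and 5938, 5908, 5755 and 5762 with IMP1088. The inhibitor libraries were all lower at high MYC, whereas at medium MYC the groups were interleaved. POU2AF1 fell by 0.19 (SE 0.03) on the log2 scale at high MYC (limma adjusted p = 1.73e-05). At medium MYC the change was -0.01 (95% interval -0.07 to 0.05, limma adjusted p = 0.845). The responses differed by -0.18 (SE 0.04, limma adjusted p = 0.00371). Between MYC levels POU2AF1 was 2.10-fold higher at medium MYC in DMSO and 2.38-fold higher in IMP1088 (limma adjusted p = 3.94e-19 and 2.57e-20).

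SPIB and SPI1 are related ETS factors that bind similar sites, SPIB in lymphoid cells and SPI1 also in myeloid cells. SPIB (ENSG00000269404, chromosome 19, 50418938 to 50431313) stood at 1739, 1708, 1600.3 and 1618 with DMSO at high MYC and at 1295, 1187, 1221 and 1297 with IMP1088. At medium MYC it stood at 1971, 2104, 2335 and 2061 with DMSO and at 2056, 2056, 2036 and 2064 with IMP1088. The high MYC groups were well apart and the medium MYC groups overlapped. SPIB fell by 0.41 (SE 0.04) on the log2 scale at high MYC (limma adjusted p = 3.17e-07), and at medium MYC the change was -0.04 (95% interval -0.13 to 0.05, limma adjusted p = 0.531). The difference between the responses, -0.37 (SE 0.06, limma adjusted p = 3.41e-04), was the largest in size among the 9 factors. SPIB was higher at medium MYC by 0.34 in DMSO and 0.72 in IMP1088 (limma adjusted p = 3.40e-07 and 1.86e-12).

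SPI1 (ENSG00000066336, chromosome 11, 47354860 to 47378576) gave 509, 447, 425 and 399 with DMSO at high MYC and 298, 314, 303 and 326 with IMP1088. At medium MYC it gave 383, 378, 481 and 368 with DMSO and 306, 344, 327 and 275 with IMP1088. Inhibitor libraries were below their controls at both MYC levels without overlap, and replicate 3 of medium MYC with DMSO stood above the other 3 of its group. SPI1 fell by 0.51 (SE 0.09) on the log2 scale at high MYC and by 0.36 (SE 0.09) at medium MYC (limma adjusted p = 9.89e-05 and 0.00306). The responses differed by -0.16 (95% interval -0.41 to 0.09, limma adjusted p = 0.504). Between MYC levels the change was -0.15 in DMSO (95% interval -0.32 to 0.03, limma adjusted p = 0.122), and without replicate 3 of medium MYC with DMSO it was -0.24 (adjusted p = 0.00896). In IMP1088 it was 0.01 (95% interval -0.17 to 0.19, limma adjusted p = 0.926), and 0.14 (adjusted p = 0.0483) with the GC correction. ITGAM, an integrin counted here among the myeloid markers, also fell at high MYC (-0.47, limma adjusted p = 0.00153). At medium MYC ITGAM averaged 221 with DMSO and 183 with IMP1088 and was not called, whereas SPI1 was. Between MYC levels in DMSO ITGAM went from 78.7 at high MYC to 221 at medium MYC, unlike SPI1. LYZ, the other myeloid marker in the fit, changed by 0.04 at high MYC (limma adjusted p = 0.863) and rose by 0.45 at medium MYC (limma adjusted p = 0.0115). CD14 averaged 2.42 with DMSO and 8.45 with IMP1088 at high MYC, under the filter. The myeloid list summed to 119 to 136 normalized counts with DMSO and 108 to 119 with IMP1088 there. S100A8 and S100A9 were at 0 in 3 of the 4 groups and ELANE in all 4. All libraries came from 1 B cell line, and a link between these marker genes and the SPI1 result was not tested.

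IKZF1 (ENSG00000185811, chromosome 7, 50304068 to 50405101) (Ikaros) sets up the lymphoid programme. Its libraries held 2812, 2968, 2861 and 2852 with DMSO at high MYC and 2134, 2184, 2081 and 2149.6 with IMP1088. At medium MYC they held 2715, 2857, 2745 and 2791 with DMSO and 2512, 2509, 2424 and 2441 with IMP1088. The inhibitor groups lay below the DMSO groups at both MYC levels, with a wider gap at high MYC. IKZF1 fell by 0.43 (SE 0.03) on the log2 scale at high MYC and by 0.17 (SE 0.03) at medium MYC (limma adjusted p = 2.61e-10 and 8.74e-05). The difference between the responses was -0.26 (SE 0.04, limma adjusted p = 1.28e-04). In DMSO the MYC levels differed by -0.05 (95% interval -0.11 to 0.01, limma adjusted p = 0.115), and in IMP1088 IKZF1 was higher at medium MYC by 0.21 (limma adjusted p = 5.92e-07).

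**Figure D2:**
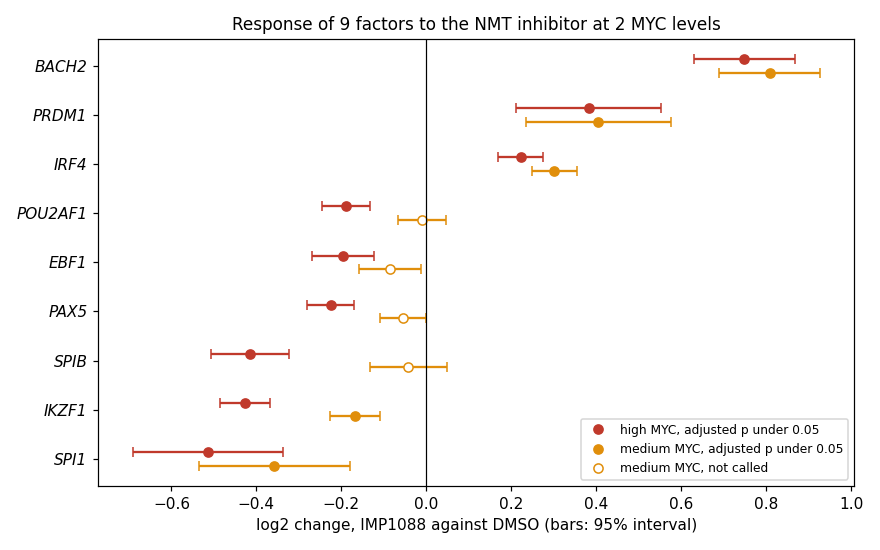
Log2 change with IMP1088 against DMSO (horizontal axis) for the 9 factors in the fit, at high MYC (red) and medium MYC (orange); bars are 95% intervals that are not adjusted over genes, filled points passed the limma threshold and open ones did not. BACH2, PRDM1 and IRF4 lie above 0 at both levels, and PAX5, POU2AF1, SPIB and IKZF1 are further below 0 at high MYC.

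BCL6 (ENSG00000113916, chromosome 3, 187721377 to 187745727), the repressor that defines germinal centre B cells, had at most 12 reads in any library. High MYC libraries had 2, 4, 2 and 2 reads with DMSO and 1, 1, 3 and 3 with IMP1088, and medium MYC libraries had 5, 12, 8 and 8 with DMSO and 10, 8, 6 and 12 with IMP1088. Every medium MYC library lay above every high MYC library of the same treatment, while the treatments overlapped at each MYC level. The difference of mean log2 values between medium and high MYC was 1.22 in DMSO and 1.84 in IMP1088, each with p = 0.0286 in a two-sided exact permutation test, the smallest value that 4 against 4 libraries allow, and 0.0571 after Benjamini-Hochberg adjustment over 4 tests. In the limma fit with no filter on low values, BCL6 between MYC levels had an adjusted p of 0.0142 in DMSO and 4.34e-04 in IMP1088. For the inhibitor the exact permutation test gave -0.28 (p = 0.486) at high MYC and 0.34 (p = 0.229) at medium MYC. A response of BCL6 was not detectable at this depth.

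Comparing medium with high MYC addresses how the factors stand at the MYC levels that the additives set. In DMSO 7 of the 9 factors were called, with PAX5, EBF1, IRF4, POU2AF1 and SPIB higher and BACH2 and PRDM1 lower at medium MYC, beside 76.2% of all genes tested (38.9% higher and 37.3% lower). In IMP1088 7 of 9 were called, with IKZF1 joining the 5 higher factors and BACH2 lower, beside 77.5% of all genes (39.7% higher and 37.8% lower). These shares are close to those over all genes. Libraries of the 2 MYC levels did not overlap for 7 of the 10 factors in DMSO and 8 of the 10 in IMP1088, as for 69.2% and 72.6% of the genes tested. The median log2 change of the 9 was 0.34 in DMSO and 0.55 in IMP1088, against 0.02 over all genes in each. The comparisons at the 2 treatments use different libraries, but each shares its DMSO or IMP1088 groups with the inhibitor comparisons above.

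**Figure D3:**
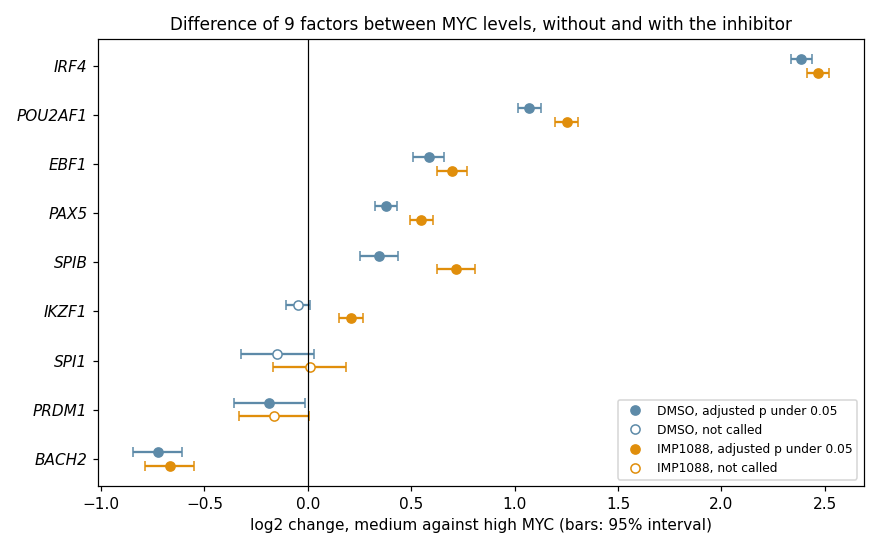
Log2 change from high to medium MYC (horizontal axis) for the 9 factors, in DMSO (blue) and in IMP1088 (orange), with 95% intervals that are not adjusted over genes; filled points passed the limma threshold. IRF4 stands apart at 2.39 and 2.47, and BACH2 is the lowest at -0.73 and -0.67.

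Levels were compared between factors after division by the length of the longest annotated transcript, as normalized counts per kilobase. At high MYC with DMSO the order was POU2AF1 (849), PAX5 (586), IKZF1 (456), SPIB (439.6), IRF4 (382), SPI1 (317), EBF1 (166), PRDM1 (42.9), BACH2 (37.5) and BCL6 (0.625). Of these neighbours IKZF1 and SPIB overlapped between libraries. With IMP1088 at high MYC IRF4 (446 per kilobase) came next after PAX5 (501), above IKZF1 (339) and SPIB (329.7), and BACH2 (63.1) came above PRDM1 (56.0), with overlap in the last pair and between IKZF1 and SPIB. At medium MYC with DMSO IRF4 led with 1999 per kilobase, ahead of POU2AF1 (1784) and PAX5 (762), and no neighbours overlapped. With IMP1088 at medium MYC IRF4 reached 2463 per kilobase, and EBF1 (235) and SPI1 (223) were the only neighbours whose libraries overlapped. The order rests on 1 transcript length per gene, and the transcripts in use were not measured here.

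As a description of factors known to oppose each other, the log2 ratio of PAX5 to PRDM1 was taken in each library. It averaged 4.51 ± 0.13 (SD, n = 4) at high MYC with DMSO and 3.90 ± 0.12 (SD, n = 4) with IMP1088. At medium MYC it was 5.07 ± 0.11 with DMSO and 4.61 ± 0.11 with IMP1088 (SD, n = 4 each). These ratios are not adjusted for length, and that of PAX5 to PRDM1 was lowest at high MYC with the inhibitor. The log2 ratio of SPIB to SPI1 was 1.91 ± 0.10 and 2.01 ± 0.08 at high MYC with DMSO and IMP1088, and 2.40 ± 0.10 and 2.71 ± 0.14 at medium MYC (SD, n = 4 each).

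For each factor the 2 tested genes with the most similar profile over the 16 libraries were found from the root-mean-square difference of centred log2 values. PAX5 was nearest to ADAR (0.03) and HLA-DPB1 (0.04), against a median of 0.41 over all genes. IRF4 was nearest to CD44 (0.09) and RFFL (0.11), against a median of 1.24. POU2AF1 was nearest to MKI67 and ARHGAP17 (0.05 each). For EBF1 these were ARHGEF7 (0.05) and UBA1 (0.06), for IKZF1 INPP4A (0.06) and TRIM25 (0.07), for SPIB MROH1 and CNP (0.07 each), and for SPI1 H4C4 (0.08) and PXN (0.10). PRDM1 was nearest to BMF (0.11) and UXS1 (0.12), against a median of 0.41. BACH2 had the largest differences from its nearest genes, TBC1D22A-DT (0.15) and ZNF674-AS1 (0.18), both non-coding. Its median over all genes was also larger than that of PRDM1, 0.61, and the differences were not scaled by these medians.

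The other factors of the B cell and plasma cell programme were taken from a list of 33 genes, of which 32 were in the fit. With the inhibitor 4 rose and 11 fell at high MYC, and 9 rose and 7 fell at medium MYC, with median log2 changes of -0.03 and -0.01. Of all genes tested 10.5% rose and 16.3% fell at high MYC, and 11.7% rose and 14.6% fell at medium MYC. XBP1, the factor of the plasma cell secretory programme, rose by 0.21 at high MYC and 1.06 at medium MYC (limma adjusted p = 2.64e-04 and 1.12e-14), and these responses differed (-0.85, limma adjusted p = 7.85e-10). XBP1 went from 405 ± 15.0 to 843 ± 37.3 normalized counts (SD, n = 4) at medium MYC. MEF2B, which acts upstream of BCL6 in germinal centre cells, fell by 0.37 at high MYC and rose by 0.37 at medium MYC (limma adjusted p = 0.00368 and 0.00343), a difference of -0.73 (limma adjusted p = 4.60e-04). ZBTB32, a repressor expressed in activated B cells, fell by 0.93 at high MYC (limma adjusted p = 8.13e-08) and changed by -0.12 at medium MYC (limma adjusted p = 0.343). At medium MYC BHLHE41 (-0.59), BCL11A (-0.50) and ID3 (-0.43) fell. ZBTB20 also fell at high MYC, from 8 to 15 reads per library with DMSO to 2 to 9 with IMP1088 (limma adjusted p = 0.00726).

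**Figure D4:**
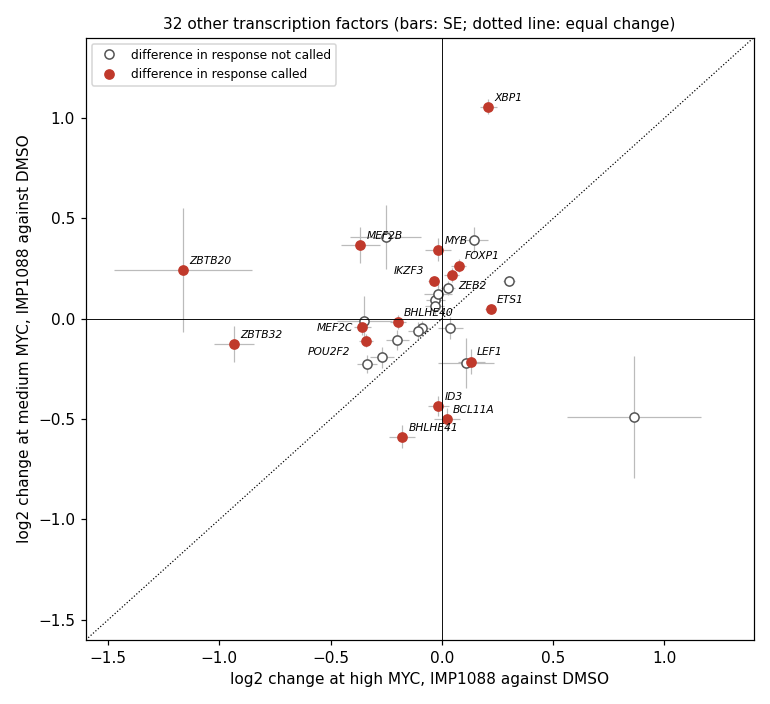
Log2 change with IMP1088 at high MYC (horizontal axis) and at medium MYC (vertical axis) for 32 other transcription factors of the programme; bars are SEs, and the dotted line marks equal change. Filled, named points are the factors whose responses differed between MYC levels (limma adjusted p under 0.05), and of these 5 changed more upward and 11 more downward at high MYC than at medium MYC. Over all genes tested such a difference was called upward for 3.31% and downward for 5.33%.

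Between MYC levels 13 of the 32 other factors were higher and 16 lower at medium MYC in DMSO, and 15 and 14 in IMP1088. Of all genes tested 38.9% were higher and 37.3% lower in DMSO, and 39.7% and 37.8% in IMP1088. ID2, an inhibitor of E proteins, had 42.5 ± 4.20 normalized counts at high MYC with DMSO and 689 ± 33.2 at medium MYC (SD, n = 4 each), a log2 change of 3.99 (limma adjusted p = 1.46e-17). RUNX3 was higher by 2.67 and BATF by 2.77. TBX21, or T-bet, had 1 to 3 reads per library at high MYC with DMSO and 182 to 233 at medium MYC. It passed the filter only through its medium MYC groups, and without it 12 of 31 were higher and 16 lower in DMSO.

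The genes downstream of the factors were described from lists of their known targets. With the inhibitor 10.5% of all genes tested rose and 16.3% fell at high MYC, and 11.7% rose and 14.6% fell at medium MYC. At medium against high MYC in DMSO 38.9% of all genes tested were higher and 37.3% lower. Of 10 tested genes that PAX5 is known to activate, 2 rose and 6 fell with the inhibitor at each MYC level, with median log2 changes of -0.23 and -0.15. CD22, an inhibitory co-receptor, fell by 0.61 at high MYC and 0.33 at medium MYC. CD72 fell by 0.78 and 0.35. In DMSO 6 of the 10 were higher and 4 lower at medium MYC, and CR2, a receptor for complement and Epstein-Barr virus, had 0 reads in all 8 high MYC libraries and 83 to 106 per library at medium MYC with DMSO, at least 27.1-fold higher against a floor of 3 reads per library. CR2 passed the filter only through its medium MYC groups, and without it 5 of 9 were higher and 4 lower in DMSO. With 0 reads at high MYC, CR2 could not be called in the inhibitor count there.

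Of 5 tested genes that PAX5 is known to repress, 2 rose and 1 fell with the inhibitor at each MYC level. Over all genes tested 26.8% were called at high MYC and 26.3% at medium MYC, which also stands beside the counts that follow. JCHAIN, the joining chain of secreted IgM and IgA, rose by 0.17 at high MYC and 0.69 at medium MYC (limma adjusted p = 0.0400 and 1.24e-08). CCR2 fell by 1.38 and 0.53. Of 6 genes that PRDM1 is known to repress, 2 rose and 3 fell at high MYC, and 2 rose and 4 fell at medium MYC. MYC was among the risers at both levels, and these counts do not separate the transgene from the cell's own gene. CIITA, the regulator of MHC class II genes, fell by 0.37 and 0.15. Of 6 tested genes that depend on POU2AF1 with the octamer factors, 5 fell at high MYC and 4 at medium MYC. Among these CCND3 fell by 0.59 and 0.33, BTK by 0.33 at each level and MS4A1 (CD20) by 0.30 and 0.17. CXCR5, also among the 6, passed the filter only through its medium MYC groups. It had 0 to 12 reads per library at high MYC with DMSO.

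Of 15 genes that BCL6 is known to repress, 5 rose and 3 fell with the inhibitor at high MYC, and 4 rose and 2 fell at medium MYC. Over all genes tested 26.8% were called at high MYC and 26.3% at medium MYC. CXCR4 rose by 0.74 and 0.21, and BCL2 by 0.32 and 0.47. Between MYC levels 12 of the 15 were higher and 1 lower at medium MYC in DMSO, where the few BCL6 reads were also more numerous. Of all genes tested 38.9% were higher and 37.3% lower in that comparison. CD44 was higher by 2.36 and BCL2 by 2.89 (limma adjusted p = 2.94e-24 and 5.00e-21), and CD80 had 3 to 9 reads per library at high MYC with DMSO and 627 to 827 at medium MYC. CD80 passed the filter only through its medium MYC groups, and without it 11 of 14 were higher and 1 lower.

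Plasma cell and B cell markers were counted beside the factors. With the inhibitor 10.5% of all genes tested rose and 16.3% fell at high MYC, and 11.7% rose and 14.6% fell at medium MYC. At medium against high MYC in DMSO 38.9% of all genes tested were higher and 37.3% lower. Of 10 plasma cell markers 4 rose and 1 fell with the inhibitor at high MYC, and 7 rose at medium MYC, with median log2 changes of 0.10 and 0.52. MZB1, a chaperone of antibody assembly, changed by -0.04 at high MYC (limma adjusted p = 0.573) and rose by 0.76 at medium MYC (limma adjusted p = 7.10e-11), and FKBP11 rose by 0.18 and 0.59. TNFRSF17 (BCMA) fell by 0.42 at high MYC. The difference in response was called for 6 of the 10, each with the lower change at high MYC, beside 8.63% of all genes tested (3.31% positive and 5.33% negative). SDC1 (CD138) did not pass the test at either level (0.08 and -0.03, limma adjusted p = 0.806 and 0.926). Of 9 tested B cell markers 8 fell at high MYC and 6 at medium MYC. The median log2 changes of the 9 were -0.24 and -0.14, and PTPRC (CD45) fell by 0.49 and 0.15. In DMSO 8 of the 10 plasma cell markers were lower at medium MYC, JCHAIN by -3.52 on the log2 scale. The other 2 were higher, SLAMF7 with 10.7 at high MYC and 247 at medium MYC and ELL2 with 9.31 and 31.9, and ELL2 passed the filter through its medium MYC groups. Of the 9 B cell markers 7 were higher and 2 lower at medium MYC in DMSO. The 2 lower were CD79A, with a mean of 3096 at high MYC and 2854 at medium MYC, and CD79B, with 1574 and 1464.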

How the data were processed

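Per the labels' protocols, RNA came from a miRNeasy kit and cDNA from a Nugen kit, and sequencing used an Illumina HiSeq. The submitters' processing notes name STAR 2.5.2a, RSEM 1.2.31, DESeq2 1.16.1 and GRCh38, with no role or order. The use of strand and the annotation release are not given in the sources used here. Exons of 6 of the 10 genes overlap those of another gene in GENCODE release 29, and each overlapping gene found in the table stayed at or under 2.09. The authors deposited a signal per gene and library that they call normalized counts. Dividing each library's values by its smallest step gave whole reads for all values (tolerance 0.001), and the implied size factors ran from 0.858 to 1.33. A floor set in these reads covers counting error only. The intervals given for changes come from the limma fit and rest on the spread between libraries.

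The test was limma 3.58.1 (R 4.3.3) on log2(value + 1) with a mean trend over 13765 genes (mean at least 10), in 1 fit of all 16 libraries with 4 group means, with Benjamini-Hochberg adjustment over all genes and a two-sided threshold of 0.05. Fold changes are on that scale, which understates low genes. BCL6 had exact permutation tests. The fit was tested on simulated data. Symbols came from a table of gene names that matched 56948 of 58051 identifiers. Alternatives were other scalings (equal totals, quantile), pseudocounts of 0.1 and 10, filters, no mean trend, fits of the compared groups only, replicate blocks, count tests of the recovered reads (DESeq2 1.42.0, edgeR 4.0.16), fits without each library, and a GC correction added after the data were seen. Replicates differed by more than sampling noise. Of each list besides the 10 factors, the genes named are among the called genes with the largest log2 change in a comparison (up to 4 for each). ELANE, S100A8, S100A9, CD8A, CD14, BANK1 and SDC1 were named after their values were seen, as defining markers. CD79A and CD79B were named as the B cell markers that were lower at medium MYC in DMSO. The factors and lists were chosen with earlier results of these data known, so their counts are descriptions. Of the T cell and myeloid markers, 4 and 2 of 10 were in the fit, and none of the erythroid ones. Protein sequences, and the N-terminal glycine check that would need them, were not analysed here. Some genes of the lists are counted but not reported by name here.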

Additional observations from a re-analysis of the deposited data

Results flagged for a closer look

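The response to IMP1088 differed between MYC levels, by limma's test of the difference, for PAX5 (-0.17, adjusted p = 0.00486), POU2AF1 (-0.18, adjusted p = 0.00371), SPIB (-0.37, adjusted p = 3.41e-04) and IKZF1 (-0.26, adjusted p = 1.28e-04), each on the log2 scale as the change at high MYC minus that at medium MYC. Each of the 4 was lower with the inhibitor in 4 of 4 libraries at high MYC.

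In 2 of 40 sets of 4 libraries 1 library stood apart from the other 3 by Dixon's test, where chance gives about 1 in 20. The lowest BACH2 library of high MYC with DMSO, replicate 4, was at 315.2 normalized counts. The highest SPI1 library of medium MYC with DMSO, replicate 3, was at 481.3.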

How the results depend on the processing

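Over all alternatives the 10-gene counts stayed within 1.5 times: 9 called at high MYC in each setting, 5 to 6 at medium MYC, 4 for the difference in response, 6 to 8 between MYC levels in DMSO and 7 to 8 in IMP1088. Of the results under alternatives, 1328 kept their direction and side of the threshold, 12 fell short of it, 8 passed it and 20 changed sign, and none of the 20 was called on either side. POU2AF1 at medium MYC became 0.0189 with equal totals, 0.00939 with quantile normalization, 0.00181 with edgeR and 0.0303 with the GC correction, whether or not the replicate block was added. SPIB at medium MYC became 0.00025 with quantile normalization and 0.0142 with the GC correction, whether or not the block was added. SPI1 between MYC levels in IMP1088 became -0.00379 with quantile normalization. Without 1 library each, POU2AF1 at medium MYC ran from -0.0198 to 0.00581, SPIB from -0.0757 to 0.00568, SPI1 between MYC levels in IMP1088 from -0.0373 to 0.0691 and the PRDM1 difference in response from -0.0745 to 0.0424. The cause of these changes was not tested. The replicate numbers did not pair the libraries (mean correlation of deviations between same-numbered libraries from -0.07 to 0.02, and in 8 of 48 pairings of a library with another group the best match was its own number), and among the 9 factors a replicate block changed the call of PRDM1 between MYC levels in IMP1088 only (adjusted p = 0.0435). Over all genes, the calls ran from 3163 to 3934 at high MYC, 3202 to 3903 at medium MYC and 1013 to 1643 for the difference. Depth limits genes with few reads in a group, such as BCL6, ZBTB20, TBX21, CR2 and CD80.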
